A study of Mus musculus with 5 samples.

Results

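NF-kB is a family of transcription factors built from 5 subunits, and the transcripts of all 5 were followed here: Nfkb1, Rela and Rel, whose products act in the canonical pathway, and Nfkb2 and Relb, whose products act in the non-canonical pathway. The members were chosen by gene symbol, and they are 5 of the 41388 genes in the count table. All 5 passed the filter on low counts that left 12240 genes for testing. The ubiquitin-editing enzyme A20 (gene Tnfaip3) is a brake on NF-kB signalling. The comparison asks how brain microglia of young mice labelled as A20 deletion differ from those of partially A20-deficient controls. All mice were C57Bl/6, 4 weeks old, and received 2 mg tamoxifen on postnatal days 14 and 16. The 2 control libraries came from eYFP-A20fl/wt Cx3cr1-CreERT2/+ mice, in which Cre recombinase driven from the Cx3cr1 locus can delete 1 floxed A20 allele, so the controls are themselves called partially deficient. The 3 A20 deletion libraries are labelled eYFP-A20Dmg, a genotype the labels do not spell out further. Cells of both groups were released with papain and sorted for the yellow fluorescent reporter eYFP. The labels name no separate mice, and each p-value rests on the spread among libraries. The sex-linked transcripts given below differed between the controls and between A20 deletion replicate 1 and the other 2, which are thus not repeats of 1 RNA sample, while for deletion replicates 2 and 3 the spread may be technical.

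NF-kB proteins bind DNA as pairs through a shared Rel homology domain. RelA, c-Rel and RelB carry transactivation domains, while Nfkb1 and Nfkb2 encode the precursors p105 and p100, which are processed to p50 and p52. In the canonical pathway, Toll-like, interleukin-1 and tumour necrosis factor receptors act through the IKK kinase complex to destroy IkB inhibitors and release dimers such as p50 with RelA, and in microglia this pathway drives inflammatory cytokines. In the non-canonical pathway, receptors such as CD40 stabilise the kinase NIK, which triggers processing of p100 and releases p52 with RelB. The genes of several subunits are known NF-kB targets themselves, and transcript levels do not report where the proteins are or whether they are active.

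Because of that known feedback, the promoters of the subunits were searched for the NF-kB binding motif, the 10-base kB consensus, on both strands. RefSeq windows on GRCm38.p6, running from 250 bases before to 50 bases after a transcription start, were found for 3 of the 5 subunits and covered 5 starts, 3 of them of Nfkb2. Nfkb1 and Relb had no window in the table used. The motif lay in each of the 3 Nfkb2 windows and in the Rel window. It did not lie in the Rela window, which says only that these letters are not there. Across all 32851 windows 4.51% held it. The stretches are shown because they are where the letters of the motif lie in Nfkb2, the precursor gene of the non-canonical pathway, and in Rel. Capitals mark the match, each stretch has 30 bases and reads 5′ to 3′ on the strand of the gene, and overlapping matches on both strands are given as 1.
Nfkb2, first start, chr19:46304689-46304718 (+): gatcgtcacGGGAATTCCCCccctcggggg
Nfkb2, first start, chr19:46304716-46304745 (+): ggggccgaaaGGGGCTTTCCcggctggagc
Nfkb2, second start, chr19:46305449-46305478 (+): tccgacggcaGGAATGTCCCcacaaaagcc
Nfkb2, second and last starts, chr19:46305695-46305724 (+): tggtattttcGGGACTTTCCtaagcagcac
Rel, chr11:23771041-23771070 (-): gtaagcagcGGGAAATCCCCccccctcccc
The first Nfkb2 stretch matches on both strands. Its match begins at base -39 from the start, and the match in the stretch beside it begins at base -11. The third stretch matches on the strand opposite to the gene. The match in the fourth begins 10 bases after the second start and 225 bases before the last. The Rel match begins at base -92. These are matches of letters and not measured binding sites.

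Libraries held between 9726334 and 15275199 counts, and 3 counts corresponded to between 0.192 and 0.305 CPM (counts scaled to a common library size with TMM factors). Microglial markers were abundant in every library (Csf1r 16020 CPM in the controls and 12560 CPM in the A20 deletion libraries, mean), yet 7 of 10 lay below both controls in all deletion libraries, against 18.5% of all tested genes. Of these 7 edgeR called Fcrls lower (4087 and 3680 CPM against 1495, 2003 and 1396 CPM, adjusted p = 0.0217), and Aif1, another of the 10, was called higher (2.2-fold, adjusted p = 0.0392). The targeted gene Tnfaip3 gave 453.5 and 94.64 CPM in control replicates 1 and 2, and its 3 deletion values (294.2, 276.6 and 347.1 CPM) lay between these. A count over all exons is no check of the deletion, since which exons are lost is not in the labels. A20 deletion replicates 2 and 3 stood apart from the other libraries. Mitochondrial transcripts took 4.63% and 3.56% of their counts, against 0.847% to 1.19% elsewhere. Genes with more exonic bases than the median tested gene (4427) held 37.8% and 38.5% of their tested counts, against 44.9% to 47.9% elsewhere. Control replicate 1 and A20 deletion replicate 1 contained Xist (780 and 616 counts), and the other libraries contained none and held Y-linked transcripts instead, so sex varied within both groups.

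Transcripts of the non-canonical subunits were more abundant in all 3 A20 deletion libraries than in either control, and those of the canonical subunits were not. Relb rose 2.39-fold and passed the test across all genes. Nfkb2 was 1.78-fold higher without passing. Rela, Nfkb1 and Rel had fold values of 0.881, 0.901 and 0.72, and none passed. Among all 12240 genes tested with edgeR's quasi-likelihood test at a Benjamini-Hochberg adjusted p under 0.05, 2.59% were called, 2.08% as higher and 0.507% as lower, and 21.8% lay above both controls in all 3 A20 deletion libraries. The 3 canonical and 2 non-canonical genes are too few for a share to be set against this.

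**Figure D1:**
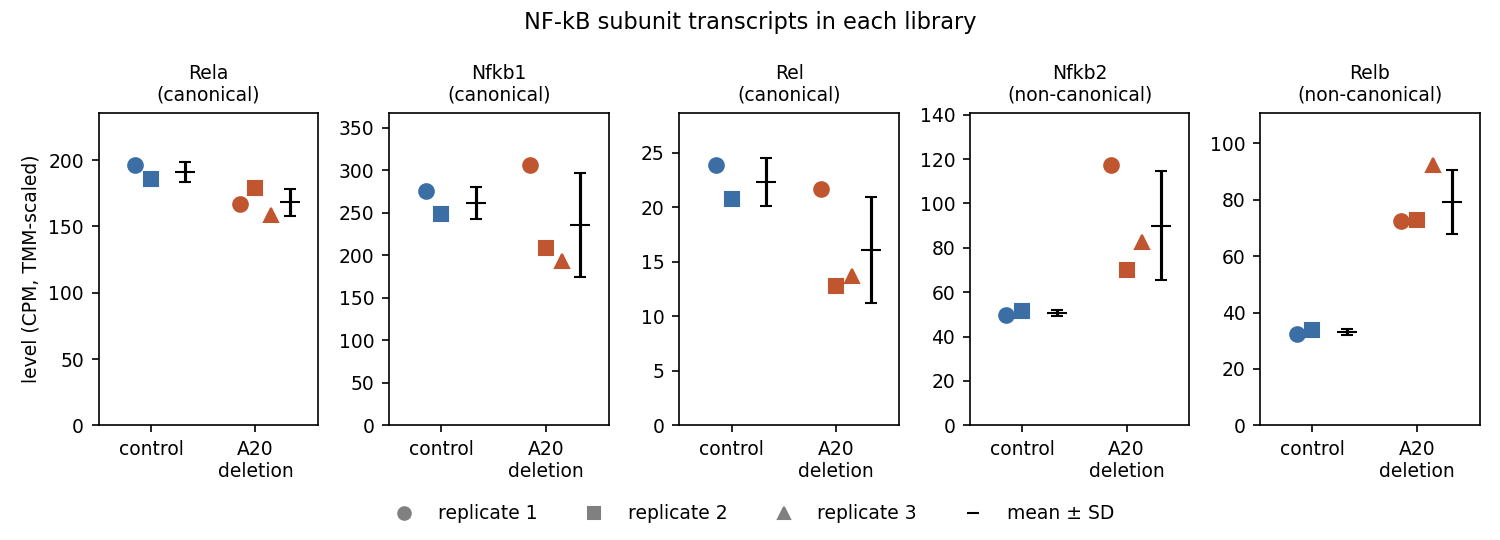
Level of each NF-kB subunit in CPM (vertical axes start at 0, with a scale of their own for each gene) in the 2 control (blue) and 3 A20 deletion (orange) libraries. Symbols give the replicate number and black bars the mean ± SD. Relb and Nfkb2 lie above both controls in every A20 deletion library, and Nfkb1 and Rel are high in A20 deletion replicate 1 and low in replicates 2 and 3.

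Relb (ENSMUSG00000002983, GRCm38 chromosome 7, 19606217 to 19629438, minus strand) encodes the transactivating partner of p52. It was counted 455 and 528 times in control replicates 1 and 2, which is 32.33 and 33.83 CPM. In A20 deletion replicates 1 to 3 it was counted 837, 927 and 907 times, which is 72.43, 72.79 and 92.28 CPM. The counting intervals of the controls overlapped (29.43 to 35.44 and 31.01 to 36.84 CPM), while every A20 deletion library lay far above both. On average Relb rose from 33.08 ± 1.062 CPM (SD, n = 2) to 79.17 ± 11.36 CPM (SD, n = 3), with a log2 fold change of 1.26 (SE 0.19, approximate 95% interval of the fold 1.77 to 3.24, edgeR adjusted p = 0.0215). The call did not survive with fewer libraries in every case. The adjusted p was 0.226 when control replicate 1 was left out, 0.276 when control replicate 2 was, and 0.0698 when A20 deletion replicate 3 was, while the log2 fold change stayed between 1.13 and 1.33 over the 17 alternatives. With control replicate 1 left out edgeR called 18 genes in all, and with control replicate 2 left out 0 (1323 had an unadjusted p under 0.05).

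Nfkb2 (ENSMUSG00000025225, chromosome 19, 46304320 to 46312385, plus strand) encodes p100, which is both the precursor of p52 and an IkB-like inhibitor. Control replicates 1 and 2 gave 49.59 and 51.45 CPM. A20 deletion replicates 1 to 3 gave 117.3, 70.04 and 82.72 CPM. All deletion libraries lay above both controls, and replicate 1 was the highest, 1.68-fold above replicate 2. The group averages were 50.52 ± 1.313 and 90.03 ± 24.49 CPM (SD, n = 2 and 3), with a log2 fold change of 0.83 (SE 0.24, interval of the fold 1.2 to 2.65, edgeR adjusted p = 0.137, unadjusted p = 0.0107). Nfkb2 therefore did not pass in the main test. It did pass with DESeq2 (adjusted p = 0.0447, where 6.08% of all genes were called higher), and with no filter on low counts (adjusted p = 0.00882, where 5.06% were). It also passed with the mitochondrial share as a covariate (log2 1.19, adjusted p = 0.00501, where 2.77% were) and with A20 deletion replicates 2 and 3 both omitted (log2 1.23, adjusted p = 0.00806, where 2.64% were and the lone deletion library is assumed to vary like the controls). Without A20 deletion replicate 1 the log2 value was 0.57 and passed (adjusted p = 0.0182), in a fit that called 15.7% of all genes higher. Exons of Nfkb2 overlap those of Psd and of the noncoding AC114539.1 on the opposite strand by up to 299 and 501 bases. The strand setting of the counting is not given, so their reads cannot be told apart there. Psd itself was counted 140 and 135 times in the controls and 153, 440 and 264 times in A20 deletion replicates 1 to 3, and its part in the value of Nfkb2 was not tested.

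Rela (ENSMUSG00000024927, chromosome 19, 5637483 to 5648130, plus strand), the main transactivating subunit of the canonical pathway, varied least among the 5 within the A20 deletion group. The control libraries gave 196.2 and 185.7 CPM, and the deletion libraries, in order of replicate number, 166.9, 178.8 and 158.7 CPM. All deletion libraries were below both controls, as were those of 18.5% of all tested genes, and the highest and lowest of them differed 1.13-fold. The log2 fold change was -0.18 (SE 0.15, interval of the fold 0.69 to 1.12, edgeR adjusted p = 0.49). It did not pass under any of the 17 alternatives, where it lay between -0.30 and -0.12. The interval leaves out a rise of the size seen for Relb.

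Nfkb1 (ENSMUSG00000028163, chromosome 3, 135584655 to 135691547, minus strand), the precursor gene of p50, split the A20 deletion libraries. The control libraries gave 275.0 and 248.0 CPM. A20 deletion replicate 1 gave 305.9 CPM, and replicates 2 and 3 gave 208.1 and 192.6 CPM. Replicate 1 was thus above both controls and the other deletion libraries below both, and the groups overlapped. The log2 fold change was -0.15 (SE 0.23, interval of the fold 0.621 to 1.31, edgeR adjusted p = 0.71). Its direction was not stable: the log2 value was 0.24 with A20 deletion replicates 2 and 3 omitted and -0.41 without replicate 1 (adjusted p = 0.0417, in a fit that called 16.7% of all genes lower).

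Rel (ENSMUSG00000020275, chromosome 11, 23736847 to 23770970, minus strand) encodes c-Rel, a subunit best known from lymphocytes, and had the fewest counts of the 5. The controls held 336 and 324 reads (23.87 and 20.76 CPM), and A20 deletion replicates 1 to 3 held 250, 163 and 135 (21.63, 12.8 and 13.74 CPM). The 95% counting interval was 11.52 to 16.26 CPM in A20 deletion replicate 3 and 18.56 to 23.15 CPM in control replicate 2, so counting error alone did not span this gap. A20 deletion replicate 1 lay between the controls, and replicates 2 and 3 lay below both. The log2 fold change was -0.47 (SE 0.27, interval of the fold 0.465 to 1.12, edgeR adjusted p = 0.339). Without A20 deletion replicate 1 it was -0.78 and passed (adjusted p = 0.0166), and with replicates 2 and 3 omitted it was -0.04.

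Nfkb1 and Rel were both low in the 2 libraries poor in genes with many exonic bases and rich in mitochondrial transcripts. Both have many exonic bases, 12061 and 7466, more than 94.1% and 79.1% of the tested genes have. The longest transcript of Rel has as many, but that of Nfkb1 has 4149, near the 3846 of Nfkb2. The deletion library where Nfkb1 and Rel were higher is also the only one of its group with Xist. The control with Xist likewise had the higher level of both. Within the deletion group sex, exonic length and mitochondrial share cannot be told apart. Relb, Rela and Nfkb2, with 3885, 3072 and 4584 exonic bases, lie nearer the middle, above 42.3%, 29.9% and 52.0% of tested genes. When the trend with exon length was removed from each library, the log2 fold change was 0.09 for Nfkb1 and -0.32 for Rel (edgeR adjusted p = 0.761 and 0.413), and 1.22 for Relb, 0.85 for Nfkb2 and -0.30 for Rela (adjusted p = 0.0181, 0.115 and 0.273). The direction of Nfkb1 turned and Relb kept its call. The trend was taken over exonic bases, so the value of Nfkb1 rests on a length well above that of its longest transcript. In bulk samples like these, fewer cells with a transcript and less of it per cell cannot be told apart.

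**Figure D2:**
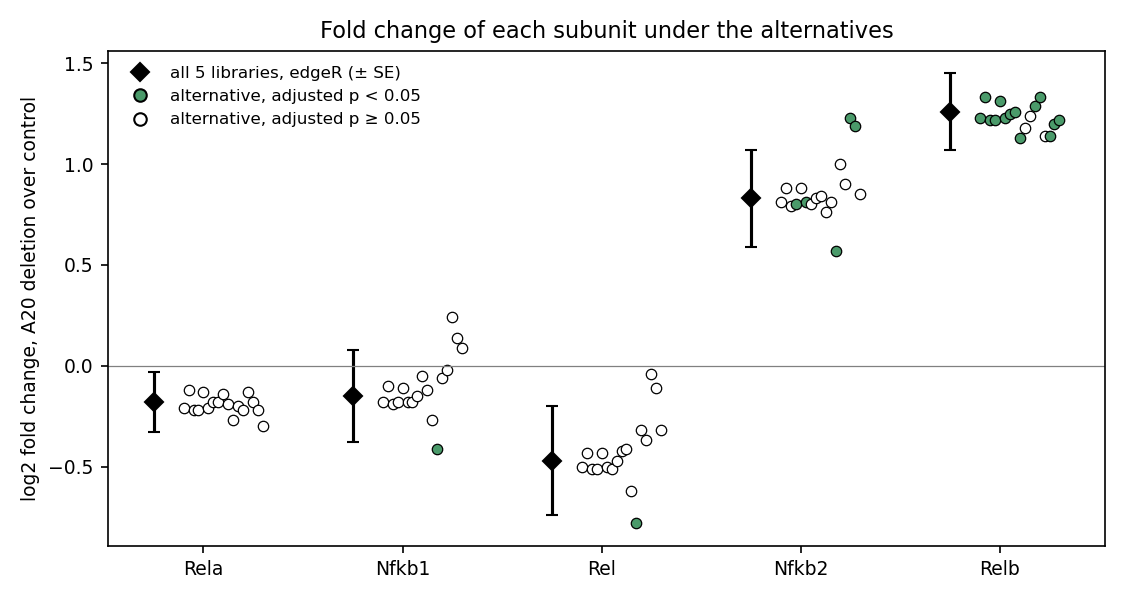
Log2 fold change of each subunit (A20 deletion over control, vertical axis) with all 5 libraries (black diamond, ± SE) and under each of 17 alternatives (circles, filled where the adjusted p was under 0.05). Relb stays between 1.13 and 1.33 and is called in 14 of the 17, Nfkb2 is called in 5, Rel and Nfkb1 in 1 each and Rela in none.

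A ratio of 2 subunits within a library does not depend on scaling, and it sets both pathways side by side. In the controls there were 16.5 and 18.2 Relb reads per 100 Rela reads, and in A20 deletion replicates 1 to 3 there were 43.4, 40.7 and 58.1. For Nfkb2 against Nfkb1, the precursor genes, the values were 18.0 and 20.7 in the controls and 38.4, 33.7 and 42.9 in the deletion libraries. Both ratios were higher in every A20 deletion library than in either control, with mean shifts of 2.7-fold and 1.97-fold. The same held for all 6 ratios of a non-canonical to a canonical subunit, whose log2 shifts ran from 0.98 (Nfkb2 to Rela and Nfkb2 to Nfkb1) to 1.76 (Relb to Rel). Every one of the 6 had an exact two-sided permutation p of 0.2 (0.2 adjusted over the 6), which is the smallest this test can give with 2 against 3 libraries. The 6 ratios share genes and are not independent of each other.

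**Figure D3:**
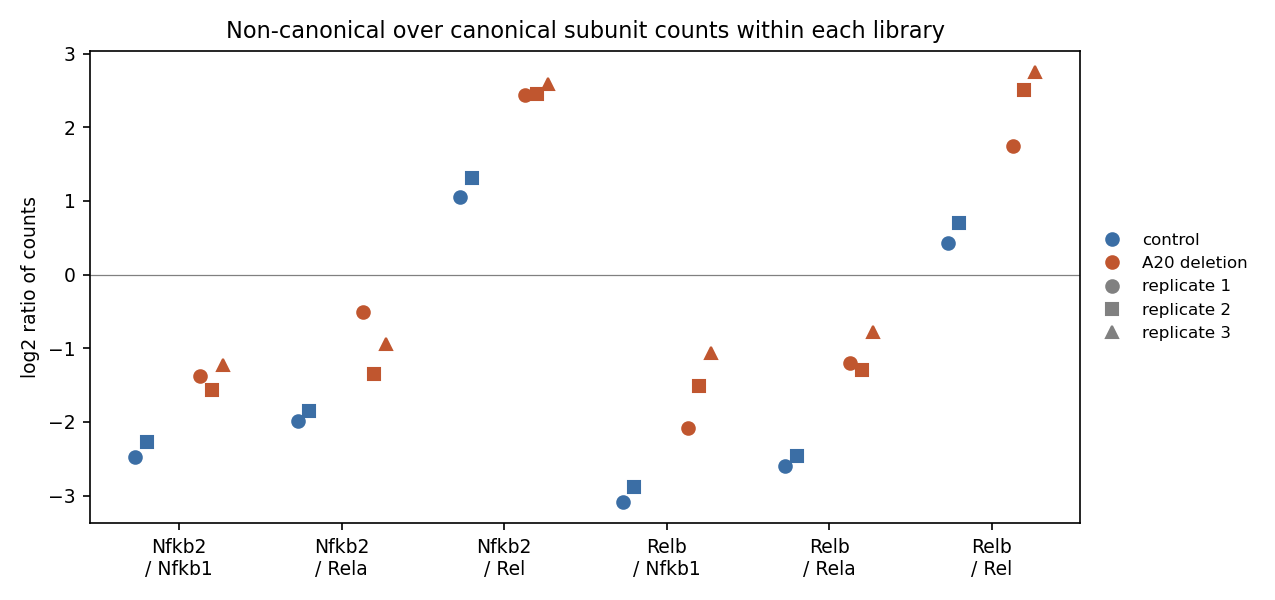
Log2 ratio of counts of a non-canonical to a canonical subunit (vertical axis) within each control (blue) and A20 deletion (orange) library, with symbols for the replicate number. In each of the 6 ratios all A20 deletion libraries lie above both controls.

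Levels of different genes were compared per kilobase of annotated exon. In the controls Rela was the most abundant at 62.1 ± 2.47 CPM per kilobase (SD, n = 2), followed by Nfkb1 at 21.7 ± 1.56, Nfkb2 at 11.0 ± 0.283, Relb at 8.52 ± 0.276 and Rel at 2.99 ± 0.297. No neighbours in this order overlapped between the 2 control libraries. In the A20 deletion libraries Rela remained at the top (51.7 to 58.2 CPM per kilobase) and Rel at the bottom (1.71 to 2.9). Between them Relb (20.4 ± 2.97, SD, n = 3), Nfkb1 (19.6 ± 5.09) and Nfkb2 (19.6 ± 5.34) overlapped and cannot be ordered. The place of Nfkb1 depends on the length used: its annotated exons, which include models with retained introns, add up to 12061 bases, while its longest transcript has 4149. Per kilobase of longest transcript Nfkb1 stood at 63.0 ± 4.6 in the controls (SD, n = 2), next to Rela at 70.3 ± 2.69, and in the deletion libraries the ranges of both overlapped (46.4 to 73.7 and 58.4 to 65.8).

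The make-up of the subunit pool differed between the groups. Of the summed level per kilobase of exon over the 5 genes, Nfkb2 and Relb together held 17.5% and 19.2% in the controls and 34.9%, 30.6% and 37.5% in A20 deletion replicates 1 to 3. By longest transcript these shares were 13.8% and 15.3% against 27.6%, 25.6% and 31.8%. The summed level itself was 109.0 and 103.7 CPM per kilobase of exon in the controls and 126.8, 111.2 and 111.3 in the deletion libraries. Rela went from 58.6% and 58.3% of the pool to 42.8%, 52.3% and 46.4%. These shares are tied to each other, since one can grow only if another shrinks, and they are given with no test.

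The subunits differed little between the controls, while several inhibitors, ligands and targets of the pathway differed by far more. This did not hold for every list as a whole. The median log2 difference, control replicate 1 minus 2, was 0.149 for the canonical subunits, 0.157 for NF-kB inhibitors and 0.249 for canonical targets. It was 0.463 for the IkB family and 1.64 for canonical ligands. Control replicate 1 exceeded control replicate 2 by 5.61-fold for Nfkbia, which encodes the main inhibitor IkB-alpha, by 11.1-fold for Nfkbiz, by 7.88-fold for Tnf and by 4.79-fold for Tnfaip3. The immediate-early genes that respond to cell handling differed in the same way, with Fos 3.74-fold and Egr1 6.84-fold higher in control replicate 1 and a median log2 difference of 1.86 over 12 genes, although the heat-shock genes Hspa1a and Hspa1b went the other way. All 5 subunits differed between the controls by at most 1.15-fold. Their log2 differences lay between -0.07 and 0.2, and 44.3% of all tested genes differed by less than 0.2 in either direction. The fold change of a feedback gene such as Nfkbia rests on which control it is set against, and that of a subunit does so much less.

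**Figure D4:**
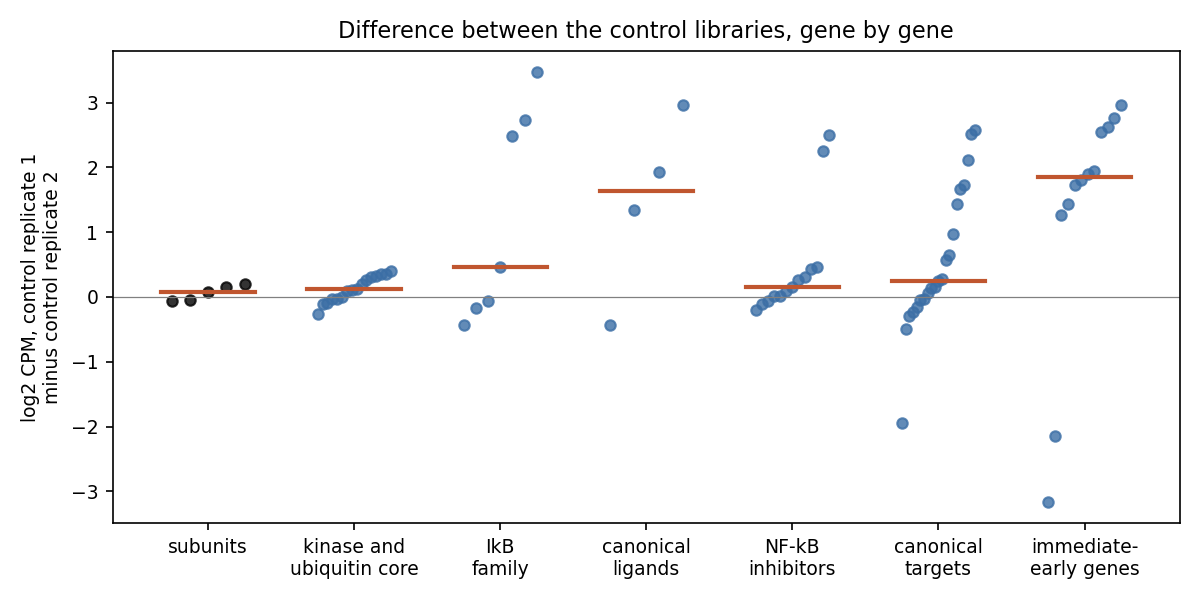
Difference in log2 CPM between control replicate 1 and control replicate 2 (vertical axis), with 1 point per tested gene and an orange line at the median of each list. The 5 subunits lie close to 0, while genes of the IkB family, the canonical ligands and the immediate-early genes reach beyond 2.

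The surrounding pathway was read from 11 gene lists with 124 genes in all, of which 107 were tested. Of these 13 rose and 0 fell (12.1% called, against 2.59% of all genes), and their median log2 fold change was 0.26, against 0.05 for all tested genes. Of the 107, 9 would not have passed the filter on the controls alone, and 4 of the 13 (Cd40, Traf1, Cxcl13 and Madcam1) were among these, so a gene admitted by its high deletion libraries had to differ. The number rested on single libraries: leaving out control replicate 1 left 3 calls and control replicate 2 left 0, against 44 (26 higher and 18 lower), 9 and 7 when A20 deletion replicates 1, 2 and 3 were left out in turn. The fit without A20 deletion replicate 1 called 15.7% of all genes higher and 16.7% lower, so its 18 lower calls among 106 tested pathway genes are no result about the pathway.

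Upstream of the non-canonical subunits, 1 of 6 tested receptors, 1 of 5 tested ligands and 1 of 8 tested genes of the kinase module rose, and 0 fell. By the same test 2.08% of all genes were called higher and 0.507% lower. Below both controls in all deletion libraries lay 2 receptors and 2 kinase module genes, against 18.5% of all tested genes. Above both lay 2 receptors and 2 kinase module genes, against 21.8%. The receptor was Cd40, with 0.5684 and 0.4485 CPM against 15.92, 12.72 and 13.53 CPM in the deletion libraries (log2 fold change 4.77, SE 0.32, edgeR adjusted p = 0.00224). The ligand was Tnfsf13b, which encodes the B cell survival factor BAFF, with 10.37 and 6.856 CPM against 38.68, 35.73 and 35.91 CPM (log2 2.09, SE 0.24, adjusted p = 0.00905). The kinase module gene was Birc3, a ubiquitin ligase that keeps NIK low, with 48.32 and 39.47 CPM against 82.99, 101.3 and 90.85 CPM (log2 1.06, SE 0.18, adjusted p = 0.0343). In each of the 3 all deletion libraries lay above both controls, as in 21.8% of all tested genes. Cd40 kept its call in 16 of 17 alternatives and Tnfsf13b in 15, but Birc3 in 11: it lost it with the replicate block, without either control, and without A20 deletion replicate 2, replicate 3 or both (adjusted p up to 0.384). The median of the kinase module was 0.02. No median is given for receptors and ligands, since 2 of the 6 and 2 of the 5 tested would not have passed the filter on the controls alone. Cd40 is 1 of those 2 receptors. Its high deletion libraries were a condition of its being tested, so its call and its kept calls say nothing about the list. Map3k14, which encodes NIK itself and was picked with its values known, had 22.45 and 23.58 CPM against 33.92, 26.62 and 26.35 CPM and did not pass (edgeR adjusted p = 0.35). Cd40lg, Tnfsf11 and Cd70 had no counts in any library, which allows a level of up to 0.305 CPM in the shallowest library.

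Upstream of the canonical subunits no receptor and no gene of the kinase and ubiquitin core passed in either direction (edgeR called 0 of 11 and 0 of 16 tested, with 3 and 1 at an unadjusted p under 0.05; DESeq2 called 1 and 0; both medians were -0.07). The receptor nearest to the threshold was Tlr2, at 296.4 ± 3.462 and 526.2 ± 61.4 CPM (log2 0.83, SE 0.17, edgeR adjusted p = 0.0543). In the core it was the ubiquitin ligase Traf6, at 39.8 ± 0.6189 and 29.68 ± 1.855 CPM (log2 -0.42, adjusted p = 0.199). The 4 tested canonical ligands had a median log2 fold change of 0.91. Between control replicates 1 and 2 the median log2 difference of the same genes was larger, at 1.64. While 2.08% of all tested genes were called higher, of the 4 ligands 1 rose and 0 fell. This was the cytokine Il1b, with 21.39 and 8.33 CPM against 80.91, 114.0 and 160.1 CPM (7.98-fold, edgeR adjusted p = 0.0267), a call lost without either control and without A20 deletion replicate 2 or 3 (adjusted p up to 0.203).

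In the lists of the IkB family and of NF-kB inhibitors, 1 of 7 and 1 of 13 tested genes rose, and 0 fell (medians 0.64 and 0.24). The share called higher among all tested genes was 2.08%. The IkB median includes Nfkbia, Nfkbid and Nfkbiz, which differed 5.61-, 6.72- and 11.1-fold between the controls and overlapped between the groups. In this family 3 of 7 lay above both controls in all deletion libraries, against 21.8% of all tested genes. Bcl3, a nuclear IkB protein that binds p50 and p52 homodimers, had 4.476 and 3.204 CPM against 18.69, 13.19 and 18.52 CPM (log2 2.13, SE 0.29, edgeR adjusted p = 0.0162), a call kept in 14 of 17 alternatives. Tank, an adaptor that binds TRAF proteins, went from 22.76 ± 1.244 to 41.83 ± 2.712 CPM (log2 0.88, SE 0.17, adjusted p = 0.0453). Its call held in 8 of 17 alternatives and was lost with limma-voom, with library size alone, with the replicate block, with the mitochondrial covariate and in 5 of the 6 fits that leave out libraries (adjusted p up to 0.379). Among 13 tested cofactors of NF-kB transcription edgeR called 0 (1 at an unadjusted p under 0.05, median -0.05) and DESeq2 0, and the nearest was the methyltransferase gene Setd6, at 1.589 ± 0.1637 and 3.597 ± 0.3441 CPM (adjusted p = 0.194).

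Of 21 tested genes listed as canonical targets 5 rose and 0 fell, with a median log2 fold change of 1.12. Over all tested genes 2.08% were called higher. The count and the median include 2 genes that would not have passed the filter on the controls alone, and Traf1 is 1 of these. The 5 were the chemokines Ccl5 (log2 5.99, SE 0.42), Cxcl10 (4.36, SE 0.54) and Ccl2 (2.00, SE 0.25), the adhesion molecule Vcam1 (3.32, SE 0.40) and the adaptor Traf1. Traf1 had 1 count in both controls together and 94 in the deletion libraries, a ratio of 81.8 (95% counting interval 14.3 to 3260), and was called in 9 of 16 alternatives, against 14 to 16 of 17 for the other 4. Of 8 genes listed as targets of the non-canonical pathway 4 were tested, 3 of which would not have passed the filter on the controls alone, so their count says nothing about the list. Madcam1, an adhesion molecule of lymphoid vessels, had 0.7105 and 0.6407 CPM against 16.62, 9.108 and 19.23 CPM (log2 4.45, SE 0.45, edgeR adjusted p = 0.00683). For Cxcl13, which encodes a lymphoid chemokine, the controls held 2 reads and the deletion libraries 2190 (ratio 953, 95% counting interval 263 to 7870), with widely differing levels of 140.6, 18.3 and 33.78 CPM in replicate order. Both were called, Madcam1 in 14 of 17 alternatives and Cxcl13 in 12, and both were among the 3 admitted by their deletion libraries. Ccl19, Ccl21a and Glycam1 had no counts in any library. Interferon is also known to induce Ccl5 and Cxcl10.

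**Figure D5:**
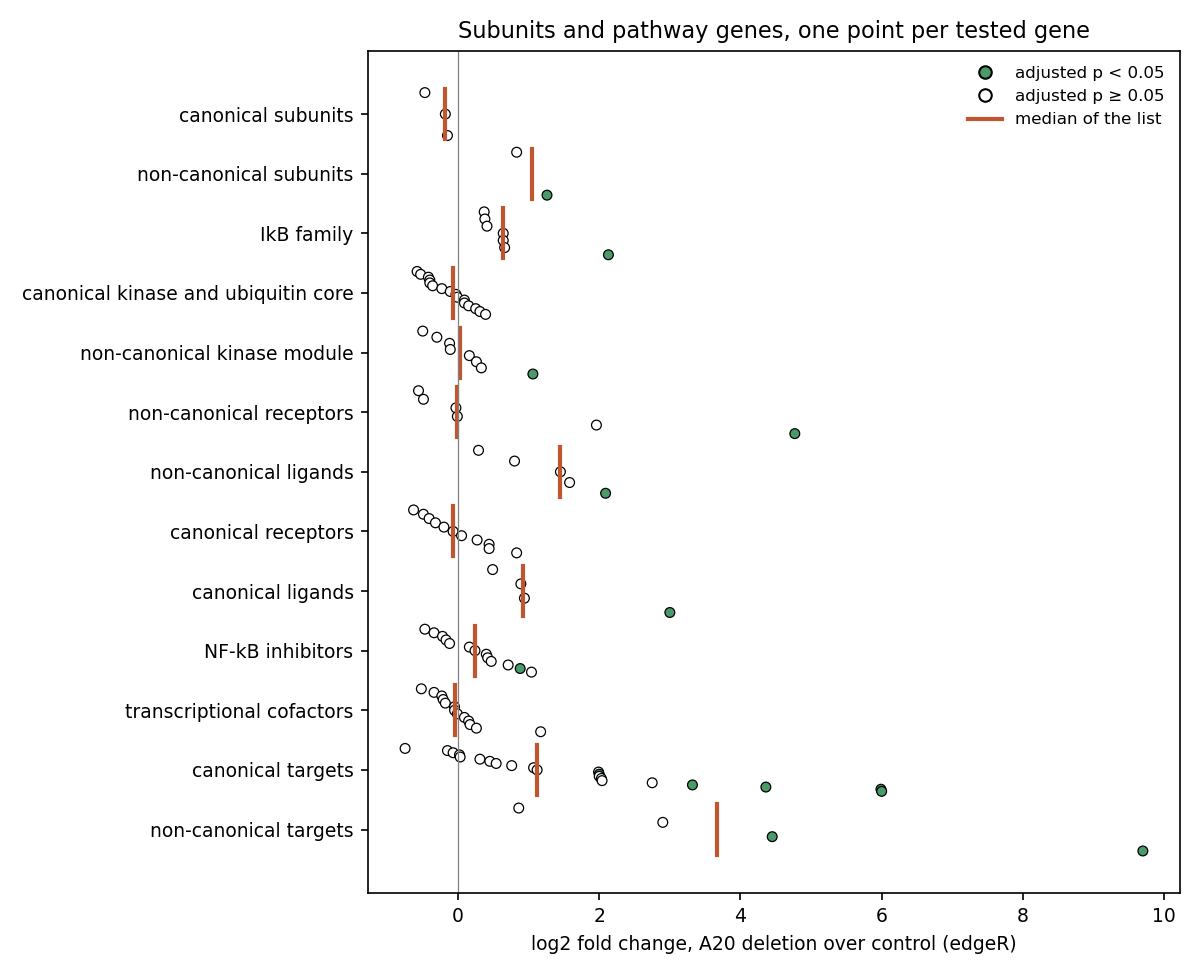
Log2 fold change (horizontal axis, A20 deletion over control) of every tested subunit and pathway gene, by list, filled where the edgeR adjusted p was under 0.05, with an orange line at the median of each list. The filled points, Relb among them, all lie above 0, and the canonical subunits lie between -0.47 and -0.15.

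Other cells that express these subunits were looked for by their markers. B cells, in which Nfkb2, Relb and Rel are known to be active, gave an uneven picture. Fcer2a had no counts in any library, and Ms4a1, Cd79a and Pax5 had none in the controls and at most 0.236 CPM in a deletion library. Cd79b was present at 39.01 and 38.96 CPM in the controls and 37.56, 49.39 and 50.36 CPM in the deletion libraries. Ighm lay at 301.7 and 235.5 CPM against 347.8, 373.8 and 357.8 CPM, above both controls without passing the test (edgeR adjusted p = 0.221). The summed B cell markers were 340.7 and 274.6 CPM in the controls and 385.3 to 423.5 CPM in the deletion libraries. Of 12 T and NK cell markers 8 were at 0 in both controls, and the sum went from 0.9237 and 1.602 CPM to between 6.206 and 8.654 CPM. Among the 8, Cd3e, Cd3d, Cd3g, Trac and Cd8b1 had counts in every deletion library, at most 0.779 CPM. Cd8a, Ncr1 and Gzmb were at 0 in at least 1 deletion library. Cd4 was the most abundant marker, at 0.5684 and 1.025 CPM against 3.981, 2.67 and 2.747 CPM (edgeR adjusted p = 0.131). The summed dendritic cell markers went from 71.12 and 58.95 CPM to between 192.4 and 369.1 CPM. Most of this was Itgax, which was called (39.32 and 239.2 CPM on average, edgeR adjusted p = 0.0174). Of 7 tested dendritic markers 5 lay above both controls in all deletion libraries: Itgax, Zbtb46 (4.33 and 5.25 CPM against 7.96, 8.25 and 8.65 CPM, adjusted p = 0.167), and Flt3, Xcr1 and Ccr7, none of which exceeded 3.05 CPM or passed. Over all tested genes 21.8% lay above both controls in this way, and 2 of the 7 would not have passed the filter on the controls alone. Cd209a was at 0 throughout. Summed monocyte and border macrophage markers lay at 70.98 and 133.1 CPM in the controls and between 96.42 and 136.9 CPM in the deletion libraries. Within that list Plac8 was called higher (2.98 and 2.63 CPM against 30.63, 16.65 and 27.06 CPM, edgeR adjusted p = 0.00792), Ly6c2 had 1 count in the controls and at most 1.22 CPM in a deletion library, and Ccr2 lay below both controls in all deletion libraries without passing (adjusted p = 0.271). The sums for astrocytes (176.9 and 256.4 CPM in the controls) and oligodendrocytes (195.3 and 223.1 CPM) were highest in A20 deletion replicates 2 and 3, at 422.4 and 427.5 CPM and at 369.7 and 367.1 CPM. In A20 deletion replicate 1 they were 199.6 and 258.3 CPM. Of 8 astrocyte markers edgeR called 1 and DESeq2 3. The 1 was Aldh1l1, higher in every deletion library (1.63 and 2.31 CPM against 8.05, 9.66 and 17.91 CPM, edgeR adjusted p = 0.0343). Neutrophil sums were 22.45 and 0.449 CPM in the controls and 1.49 to 11.42 CPM in the deletion libraries, and neuron sums 7.96 and 3.72 CPM against 10.04 to 17.2 CPM. Endothelial sums were 66.72 and 73.04 CPM against 126.4, 66.35 and 65.11 CPM. Of 8 endothelial markers 6 lay above both controls in all deletion libraries, against 21.8% of all tested genes. However, 5 of the 8 would not have passed the filter on the controls alone. Cldn5, among the 6, had 0.142 and 1.92 CPM against 19.73, 2.67 and 7.43 CPM. Pecam1 lay below both controls, and edgeR called 0 of the 8 (6 at an unadjusted p under 0.05) and DESeq2 3. The part of these cells in the values of Relb and Nfkb2 was not tested.

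Genes with the pattern nearest to that of each subunit over the 5 libraries were found among 8319 genes, by the root mean square difference of centred log2 CPM. Nearest to Relb were the Ral exchange factor Ralgds (0.044), the ferritin heavy chain Fth1 (0.049) and AU020206 (0.058). Nearest to Nfkb2 were Ms4a6c (0.06), Parp10 (0.091) and Trim34a (0.092), each highest in A20 deletion replicate 1 as Nfkb2 was. Nearest to Nfkb1 were Thada, Gng12 and Tox4 (0.027 to 0.035), and nearest to Rel were Wdr48, Ipo9 and Synrg (0.017 to 0.031). Nearest to Rela were Sparc, Rnf4 and Plod3 (0.023 to 0.034). Among the subunits themselves the nearest pair was Nfkb1 and Rel (0.18) and the farthest was Rel and Relb (0.92). Relb and Nfkb2 differed by 0.37. These distances describe 5 libraries and share their depth and structure.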

How the data were processed

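RNA of sorted microglia was sequenced in 2 control and 3 A20 deletion libraries, grouped by their titles. The deposited values are raw read counts per Ensembl gene in 1 table, made, per the submitters' processing notes, with STAR 2.4.0j, featureCounts and DESeq2 1.22.1 on GRCm38 (their roles are not stated). Per the labels' protocols, NEBNext Ultra II libraries started from 10 ng of RNA of integrity 7 or above. Annotation release, strandedness and handling of multi-mapped reads: not given in the sources used. Symbols, coordinates and exon lengths came from GENCODE M21 on GRCm38, which named 40254 of the 41388 genes.

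Counts were filtered with filterByExpr (minimum count 10, minimum total 15), scaled with TMM (trimmed mean of M values) factors and tested with edgeR 4.0.16 in R 4.3.3 (quasi-likelihood, two-sided, no covariate, Benjamini-Hochberg adjustment over 12240 genes, threshold 0.05). Standard errors are the log2 fold change divided by the square root of F, and 95% intervals use the t quantile of the fit, so both are approximate. Counting intervals are exact Poisson or, for ratios of counts, binomial, and cover counting error only. Ratios were tested by exact permutation in scipy 1.17.1. The procedure was tested on simulated data, where large changes were mostly recovered, small ones mostly were not, and false calls were more frequent than the threshold allows. Replicates of a group differed beyond sampling noise (chi-square per degree of freedom 14.4 to 76.5).

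The subunits and gene lists were chosen with earlier results of these data known. The rule names every called pathway gene in lists with 5 or fewer, the one with the smallest p where none was called, the most abundant markers of other cells, and the 3 genes nearest in pattern among genes averaging 3 or more in log2 CPM. Other named genes lie outside the rule, and their choice was not bound by it. Among them are Map3k14, Nfkbia, Nfkbiz, Tnf, Fos, Egr1 and the further markers named for each cell type. Alternatives were other scalings, filters and tools (DESeq2 1.42.0, limma-voom in limma 3.58.1), a robust fit, the replicate number as a block, left-out libraries, and the mitochondrial share as a covariate. Removal of the length trend (lowess, span 0.3) and the count over all pathway lists together were added after the data were seen.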

Additional observations from a re-analysis of the deposited data

How the results depend on the processing

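Over the 17 alternatives Rela kept its direction and never passed, and Relb kept its direction and lost its call in 3 fits that leave out a library (log2 fold change from 1.14 to 1.33 when each library was left out). Leave-one-out values ran from -0.41 to -0.02 for Nfkb1, from 0.57 to 1.0 for Nfkb2, and from -0.78 to -0.32 for Rel. Nfkb2 passed with no filter (0.80), DESeq2 (0.81), A20 deletion replicates 2 and 3 omitted (1.23), replicate 1 omitted (0.57) and the mitochondrial covariate (1.19). Nfkb1 reversed with replicates 2 and 3 omitted (0.24), with the covariate (0.14) and after removal of the length trend (0.09), and the cause was not tested. Of all genes 317 were called, 1701 with no filter, which tests more genes, 1110 with DESeq2 and 211 with limma-voom, and from 0 to 3923 with 1 library left out (3923 without A20 deletion replicate 1, 0 without control replicate 2), where fewer samples remain. Of the pathway genes 13 were called, 27 with no filter and 20 with DESeq2. The 6 ratios kept their direction without any 1 library (log2 0.77 to 2.06). By longest transcript the control levels per kilobase were 63.0 for Nfkb1, 13.2 for Nfkb2, 70.3 for Rela and 10.1 for Relb. With the replicate number as a block, a number the labels do not tie to a shared source, 260 genes passed and Relb kept its call (1.13, adjusted p = 0.0441, edgeR), and same-numbered libraries deviated together with correlations of 0.26 and 0.167 over genes, in 2 pairs. Depth limits Rel most, with 135 to 336 counts per library.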
